A study of Mus musculus with 54 samples.

Results

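Hmgcs1, Idi1, Fdft1, Sqle, Insig1, Srebf2, Fasn and Scd1 are genes of cholesterol and fatty acid synthesis, and their messenger RNA levels were followed in mouse myogenic progenitors, the precursors of muscle fibers, as these differentiated in culture. The 8 genes were taken by their NCBI gene numbers from 19653 genes listed in at least 1 of 27 deposited tables, and all 8 were listed in each of the 27. The tables set pairs of 18 groups of RNA-seq libraries side by side: 15 compare a line with wildtype on the same day, and 12 compare a line with itself 1 day later.

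The cells were H2K progenitors, a conditionally immortal line, of 6 kinds. Wildtype cells carried the mouse emerin gene, Emd, which encodes a protein of the inner nuclear membrane, and EMD-/y cells (labelled emerin null) lacked it. The other 4 lines were EMD-/y cells transduced by lentivirus and selected with puromycin: +EMD received wildtype emerin, and S54F, Δ95-99 (labelled Del9599) and Q133H each received an emerin mutant that causes Emery-Dreifuss muscular dystrophy. Each group is 1 line at 0, 24 or 48 h of differentiation (days 0, 1 and 2), with 3 libraries labelled as replicates and 54 in all. A line transduced with the empty vector was not analysed here, so in the transduced lines effects of emerin and of transduction, selection with puromycin or denser plating cannot be told apart. The dose of puromycin also differed between the transduced lines. Wildtype and EMD-/y progenitors came from different mice. In every comparison with wildtype, emerin and the origin of the line therefore cannot be told apart. Between day 0 and day 1 the cells were moved from a serum-rich medium with γ-interferon to a low horse serum medium, and the carbon dioxide in the incubator was lowered. The study's methods also describe a rise in temperature at this step, while the labels give the same temperature before and after it. Differentiation and these changes of culture cannot be told apart either.

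The tables give 1 value per gene and group, the authors' mean for that group on a scale of normalized read counts (called the mean below), and how it was made from the libraries is not given in the sources used here beyond the use of DESeq2. They give no value per library, so no spread between replicates and no test could be had from them, and the labels' protocol describes technical as well as biological replicates. A ratio is therefore called past 2-fold when the larger mean was at least 10 and at least 2 times the smaller, which says nothing of its error. Beside each count of the 8 genes stands the share of all genes tested that were past 2-fold in that comparison, counted over 13118 to 13593 genes. In bulk RNA, fewer cells of a type and less RNA per cell cannot be told apart.

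Emd itself had means of 987 to 1962 in wildtype groups and of at most 3.52 in the groups of the 5 other lines, +EMD included. By Western blot the study reported emerin protein in +EMD and in each mutant line, and none in EMD-/y. Low Emd means therefore do not show that emerin was absent from the transduced lines. Whether RNA from the lentiviral emerin was counted as Emd is not given in the sources used here. The means of all genes summed to between 16719491 and 21128040 in a group. All 10 skeletal myogenic markers examined were listed in every table, with summed means of 32862 to 714030 over the groups. Not all were high in every line. Pax7 had means of only 3.62, 6.54 and 8.30 in Q133H on days 0, 1 and 2. In the same comparisons its wildtype means were 377, 141 and 53.5. Of 7 adipocyte markers, Cidec was listed in no table, Adipoq and Plin1 had means of at most 0.553 and 0.187, and the list summed to 98.3 to 1146, most of it Cebpa. Macrophage and endothelial markers summed to at most 115 and 35.9, and fibroblast markers to between 1714 and 21580. Most of the fibroblast sum was Col1a1 and Pdgfrb, while Pdgfra, Dcn and Lum had means of at most 70.7, 51.8 and 0.497. A set of 8 predicted genes, found after the data were seen, divided the groups: their means were 38.5 or more in 13 groups and at most 14.7 in S54F, Δ95-99 and Q133H on day 0 and in wildtype and EMD-/y on day 1. All of the comparisons with wildtype on day 2 and 8 others joined groups on the same side of this division, and counts from those alone are given below where they differ.

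Cells make cholesterol from acetyl units through the mevalonate pathway. Hmgcs1 (HMG-CoA synthase) and Idi1 (isopentenyl diphosphate isomerase) act before the pathway branches, and Fdft1 (squalene synthase) and Sqle (squalene epoxidase) begin the branch that leads only to sterols. Srebf2 encodes SREBP-2, a membrane-bound transcription factor that is released when sterols in the endoplasmic reticulum are scarce and then switches on these enzymes. Insig1 encodes a protein that retains the SREBPs in the endoplasmic reticulum when sterols are plentiful, and is itself a known SREBP target. Fasn (fatty acid synthase) makes saturated fatty acids, and Scd1 (stearoyl-CoA desaturase) introduces a double bond into them. Cholesterol is a component of cell membranes, those of myoblasts included.

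In the RefSeq annotation of GRCm38.p6, the patch release of the mm10 build used by the authors, the genes lie at chr13:119690351-119708260 (Hmgcs1), chr13:8885606-8892396 (Idi1), chr14:63145150-63181687 (Fdft1), chr15:59315092-59331193 (Sqle), chr5:28071412-28078662 (Insig1), chr15:82147269-82205379 (Srebf2), chr11:120805958-120825166 (Fasn) and chr19:44394450-44407709 (Scd1). RefSeq promoter windows, which run from 250 bases before to 50 after a gene's start, matched 5 of the 8 genes. Because SREBPs are known to act on promoters together with the factor NF-Y, the windows were searched on both strands for the SREBP motif TCACNCCAC and the NF-Y motif CCAAT. The 250 bases before the start are shown for the 3 windowed genes with the widest day-to-day differences and for Fasn, whose levels moved least with theirs. The Fasn window belongs to a start inside the gene's outer limits. Capitals mark every match, and a CCAAT match on the other strand reads ATTGG.
Hmgcs1, chr13:119690101-119690350, plus strand: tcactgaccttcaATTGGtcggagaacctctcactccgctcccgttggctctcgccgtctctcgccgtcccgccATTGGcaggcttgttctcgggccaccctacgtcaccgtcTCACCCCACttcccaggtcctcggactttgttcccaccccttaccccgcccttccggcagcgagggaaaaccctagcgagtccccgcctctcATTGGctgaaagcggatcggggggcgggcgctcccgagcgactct
Idi1, chr13:8885356-8885605, plus strand: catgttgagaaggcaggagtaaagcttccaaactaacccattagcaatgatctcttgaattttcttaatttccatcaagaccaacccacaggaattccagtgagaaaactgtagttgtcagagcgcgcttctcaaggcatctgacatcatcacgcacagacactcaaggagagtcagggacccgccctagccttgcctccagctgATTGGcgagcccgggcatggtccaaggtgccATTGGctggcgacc
Insig1, chr5:28071162-28071411, plus strand: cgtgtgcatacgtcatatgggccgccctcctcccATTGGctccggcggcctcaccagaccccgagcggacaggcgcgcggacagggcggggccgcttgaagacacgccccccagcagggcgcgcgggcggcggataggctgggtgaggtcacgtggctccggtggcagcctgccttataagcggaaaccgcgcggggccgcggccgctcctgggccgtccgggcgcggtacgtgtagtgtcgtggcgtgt
Fasn, chr11:120824548-120824797, minus strand: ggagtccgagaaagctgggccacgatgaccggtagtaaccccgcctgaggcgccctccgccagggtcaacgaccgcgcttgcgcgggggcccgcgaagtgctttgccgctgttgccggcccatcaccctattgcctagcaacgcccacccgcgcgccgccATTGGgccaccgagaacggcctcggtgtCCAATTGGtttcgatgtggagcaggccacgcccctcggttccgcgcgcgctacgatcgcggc

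Hmgcs1 was the only one of the 5 windowed genes with a TCACNCCAC match, which read TCACCCCAC and began 137 bases before the start. This motif was present in 1.24% of all 32851 promoter windows. All 5 windows held CCAAT, which 37.4% of all windows hold: the whole Hmgcs1 window held 4 matches, 1 of them after the start, Fasn 3, of which 2 overlap, Idi1 2, and Insig1 and Srebf2 1 each. Among the 18 other sterol synthesis enzymes described below, 15 have a window, of which 14 held CCAAT and 0 held TCACNCCAC, against 41.1% and 1.44% of all 27025 genes with a window. These are matches of letters and not binding sites.

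On day 0 in wildtype progenitors the 8 genes were all well expressed. Per kilobase of the gene length given in the tables, the mean was highest for Srebf2 at 1066, followed by Scd1 at 668, Fasn at 533, Hmgcs1 at 524, Sqle at 518, Idi1 at 499, Fdft1 at 334 and Insig1 at 326. Insig1 was thus above 66.3% and Srebf2 above 89.7% of the genes with a mean of at least 10 on this scale. The mean of 1 of the 8 genes in 1 group differed between tables by 1.95% to 14.2%, and Fasn, Hmgcs1, Sqle and Idi1, which are neighbors in this order, lay within the upper end of that range of each other.

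From day 0 to day 1, the sterol synthesis enzymes and Insig1 were higher in all 6 lines. Over the 8 genes and 6 lines, all 48 ratios were above 1 and 28 were past 2-fold, with a median log2 ratio of 1.26, whereas the median over all genes tested lay between -0.02 and 0.00 in each line. At least 2-fold higher were 4 of the 8 genes in wildtype and 5 in EMD-/y, where 12.7% and 12.2% of all genes were. The count was 5 in S54F, 5 in Δ95-99 and 5 in Q133H, against 9.62%, 7.53% and 5.95% of all genes, and 4 in +EMD, against 10.7%. None of the 8 was 2-fold lower in any line, where 10.6%, 9.67%, 7.49%, 6.96%, 6.60% and 7.17% of all genes were, in the order wildtype, EMD-/y, S54F, Δ95-99, Q133H and +EMD.

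**Figure D1:**
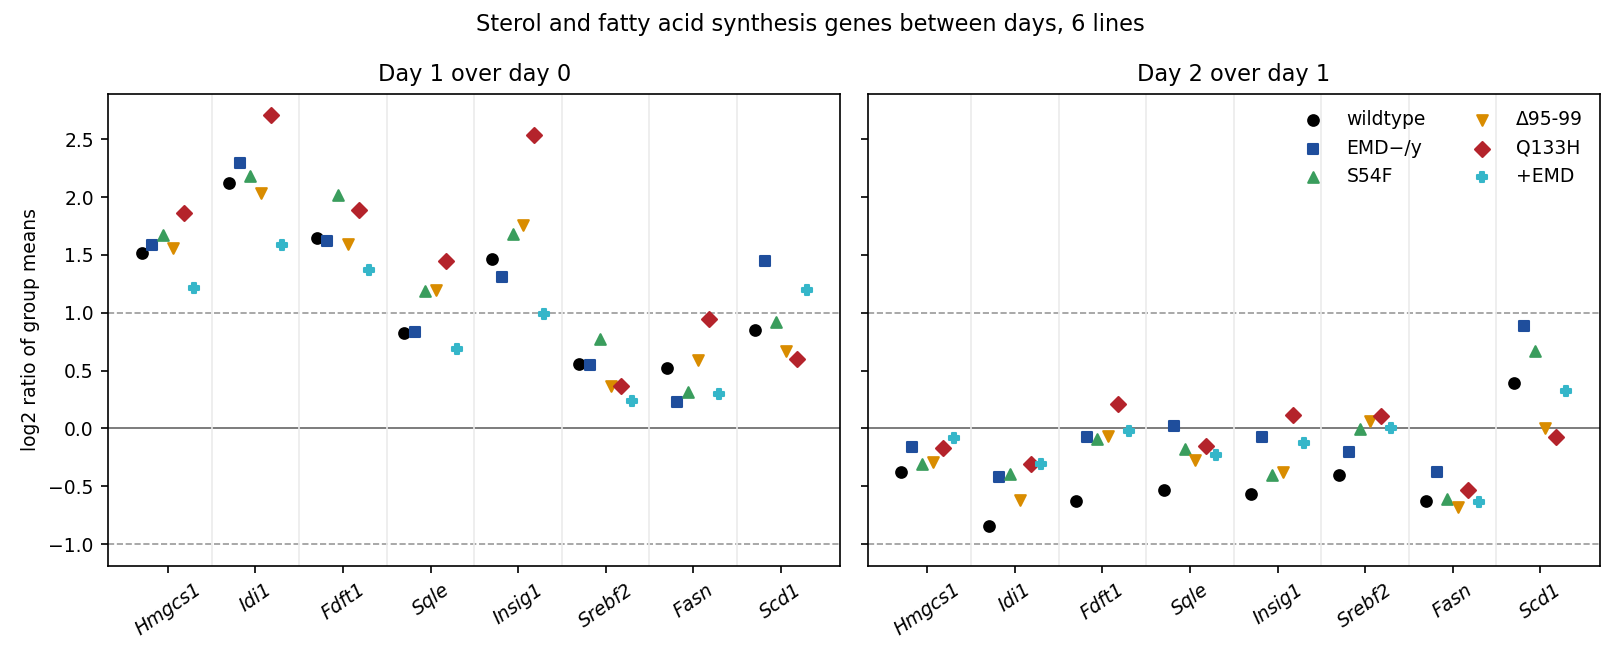
The log2 ratio of group means is plotted for each of the 8 genes, day 1 over day 0 on the left and day 2 over day 1 on the right, with 1 symbol per line and dashed lines at 2-fold. The sterol enzymes and Insig1 lie between 0.68 and 2.71 on the left, and all 48 points on the right lie between -0.84 and 0.89.

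Hmgcs1 makes HMG-CoA, an early intermediate of the pathway. In the order wildtype, EMD-/y, S54F, Δ95-99, Q133H and +EMD, its means were 1858, 1781, 1904, 1603, 1105 and 2282 on day 0 and 5325, 5340.3, 6067, 4728, 4012 and 5304 on day 1. The lowest day 1 mean, in Q133H, was above the highest day 0 mean, in +EMD. The ratio ran from 2.32-fold in +EMD to 3.63-fold in Q133H.

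Idi1, which converts isopentenyl diphosphate to its isomer, had the largest ratio of the 8 genes in each of the 6 lines. Its means were 1438, 989, 1035, 1095, 738 and 1462 on day 0 and 6274, 4861, 4708, 4491, 4829 and 4379 on day 1 in wildtype, EMD-/y, S54F, Δ95-99, Q133H and +EMD. The ratio was 4.36-fold in wildtype, 4.92-fold in EMD-/y, largest in Q133H at 6.55-fold, and smallest in +EMD, at a log2 ratio of 1.58. The lowest day 1 mean was again well above the highest day 0 mean.

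Fdft1, which joins farnesyl units into squalene, had means of 1242, 1051, 959.5, 842, 661 and 1147 on day 0 and 3885, 3234, 3886, 2545, 2451 and 2963 on day 1, in the same order of lines. Its ratio lay between 2.58-fold in +EMD and 4.05-fold in S54F, so the gene was past 2-fold in all 6 lines, as were Hmgcs1 and Idi1. Sqle, which oxidizes squalene, had means of 1424, 1300.5, 1626, 1080.0, 906 and 1652 on day 0 and 2522, 2313, 3701, 2469.9, 2478 and 2655 on day 1. Its ratio was smaller, from 1.61-fold in +EMD to 2.73-fold in Q133H, and was past 2-fold in S54F, Δ95-99 and Q133H.

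Insig1 followed the enzymes. Its means were 869, 759, 707, 769, 495 and 1059 on day 0 and 2401, 1878, 2272, 2609.8, 2866 and 2104 on day 1, in the same order of lines. The ratio was widest in Q133H, at 5.79-fold, and 1.99-fold in +EMD, the only line short of 2-fold. Q133H thus had the lowest Insig1 mean of the 6 lines on day 0 and the highest on day 1.

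Srebf2, the regulator, had means of 4871, 4385, 4691, 4787, 3934 and 5559 on day 0 and 7155, 6403, 8008, 6186, 5065 and 6546 on day 1. It was higher on day 1 in all 6 lines by log2 ratios of 0.24 to 0.77, with none past 2-fold, and its groups of days 0 and 1 overlapped. Fasn had means of 5301, 5986, 6632, 6833, 6222 and 7236 on day 0 and 7629.8, 7007, 8261, 10311, 11995 and 8891 on day 1, with log2 ratios of 0.53, 0.23, 0.32, 0.59, 0.95 and 0.30 in wildtype, EMD-/y, S54F, Δ95-99, Q133H and +EMD, again with none past 2-fold, and the largest value was in Q133H. Scd1 had means of 3237, 1532, 1918, 2029.9, 2074 and 1306 on day 0 and 5841, 4187, 3625, 3225, 3141 and 3001 on day 1, and was past 2-fold in EMD-/y at 2.73-fold and in +EMD at 2.30-fold. The order of the lines for Scd1 was not that of the sterol enzymes: Q133H had the smallest Scd1 ratio, at 1.51-fold. The only line whose day 0 and day 1 groups lay on the same side of the division by predicted genes was +EMD, and there 4 of the 8 genes were past 2-fold, including Hmgcs1, Idi1 and Fdft1.

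**Figure D2:**
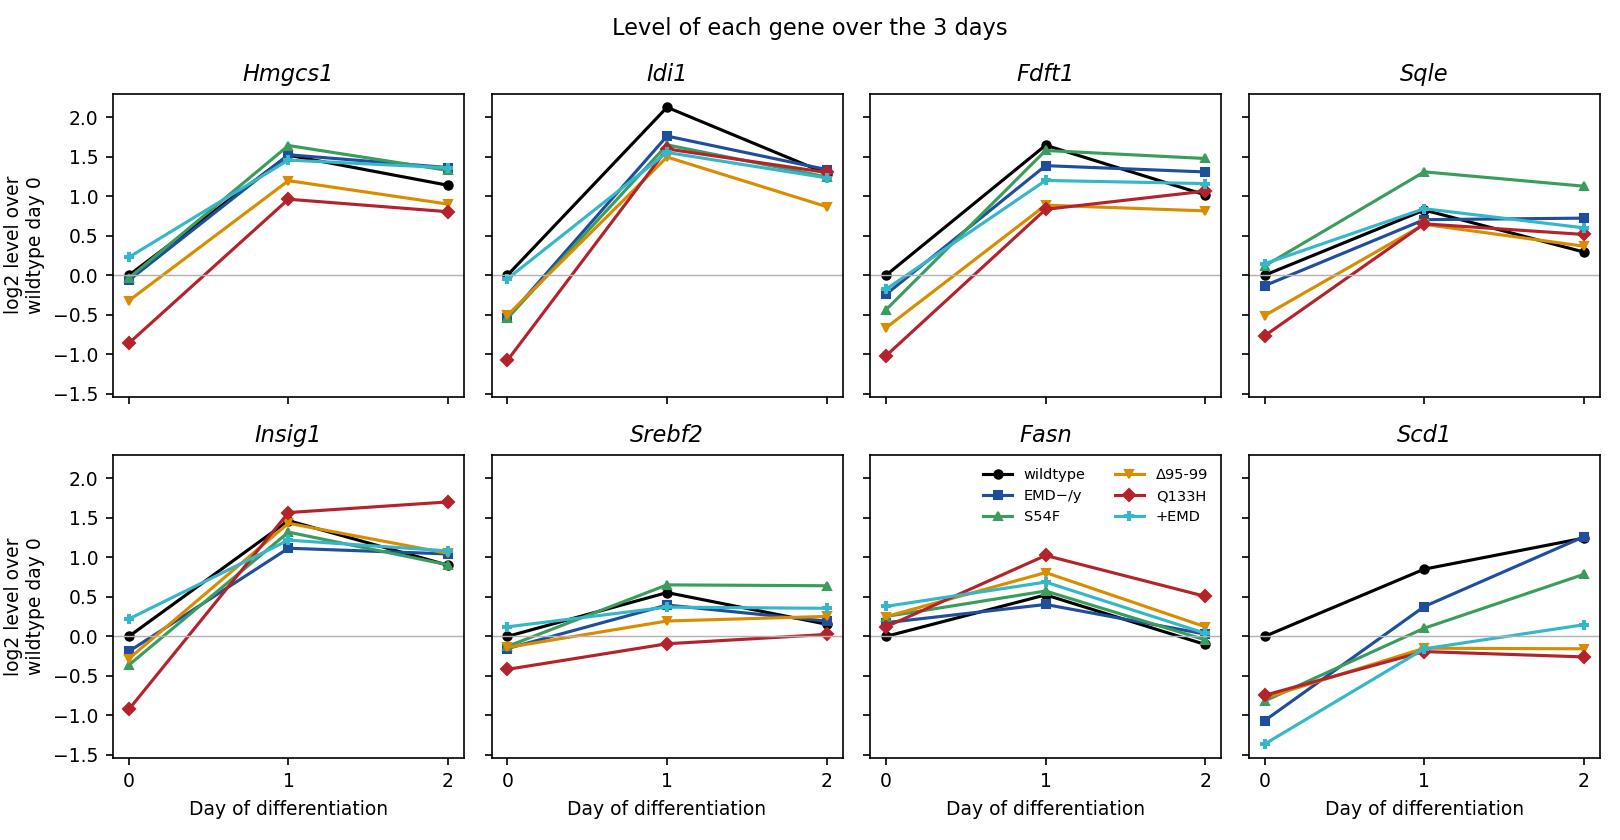
The log2 level of each gene on days 0, 1 and 2 is plotted relative to wildtype on day 0, 1 line of the plot per cell line. Levels were joined from the wildtype day-to-day tables and the tables against wildtype, and the joined ratios differ from those of the lines' own tables by at most 0.05. The 4 sterol enzymes and Insig1 are higher on day 1 than on day 0 in every line, and Scd1 spreads out between lines.

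From day 1 to day 2 none of the 8 genes was past 2-fold in either direction in any line, but most were lower on day 2. Of all genes tested, 8.14%, 7.81%, 9.54%, 9.17%, 6.55% and 11.2% were at least 2-fold higher and 12.2%, 11.4%, 11.4%, 5.49%, 4.54% and 9.85% at least 2-fold lower in wildtype, EMD-/y, S54F, Δ95-99, Q133H and +EMD. Of the 48 ratios, 37 were below 1 and 11 above, with a median log2 ratio of -0.19.

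The sterol enzymes had their lowest ratios of day 2 over day 1 in wildtype, where log2 ratios were -0.38 for Hmgcs1, -0.84 for Idi1, -0.63 for Fdft1 and -0.53 for Sqle. Those of Insig1 and Srebf2 in wildtype were -0.56 and -0.40. For each of these 6 genes the wildtype value was the lowest of the 6 lines. The difference between lines was not tested. Idi1 and Hmgcs1 had ratios below 1 in all 6 lines, as did Fasn, at log2 ratios of -0.63, -0.37, -0.61, -0.68, -0.53 and -0.64 in wildtype, EMD-/y, S54F, Δ95-99, Q133H and +EMD. Beside its log2 ratios from day 0 to day 1, given above, these were larger in size in every line except Q133H. Scd1 had log2 ratios of 0.39, 0.89, 0.67, 0.01, -0.08 and 0.33, so that its highest level came on day 2 in wildtype, EMD-/y, S54F and +EMD, and its level was about the same on both days in Δ95-99 and Q133H. The wildtype and EMD-/y groups of days 1 and 2 lay on opposite sides of the division by predicted genes, and those of the other 4 lines on the same side.

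Against wildtype on the same day, the 8 genes were mostly close. Of 120 ratios, 10 were past 2-fold, all of them lower than wildtype, and 8 of the 10 were Scd1. On day 0, for the lines EMD-/y, S54F, Δ95-99, Q133H and +EMD in this order, 1, 0, 0, 2 and 1 of the 8 genes were at least 2-fold lower, where 3.94%, 6.32%, 6.92%, 8.67% and 11.0% of all genes were. On day 1 the counts were 0, 0, 1, 1 and 1, against 2.89%, 6.69%, 12.3%, 14.9% and 10.9%, and on day 2 they were 0, 0, 1, 1 and 1, against 2.96%, 5.03%, 9.10%, 15.6% and 7.81%. Counts of 0 or 1 of 8 genes are too small to be set apart from these shares. Among comparisons of groups on the same side of the division by predicted genes, 2 of 16 ratios were past 2-fold lower on day 0, 0 of 8 on day 1 and 3 of 40 on day 2.

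None of the 8 genes was 2-fold higher than wildtype in any line. In EMD-/y, S54F, Δ95-99, Q133H and +EMD, the shares of all genes that were higher were 5.18%, 6.00%, 5.82%, 6.45% and 6.30% on day 0. They were 4.79%, 5.84%, 9.05%, 9.70% and 9.20% on day 1 and 5.02%, 6.10%, 13.4%, 18.2% and 10.9% on day 2.

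**Figure D3:**
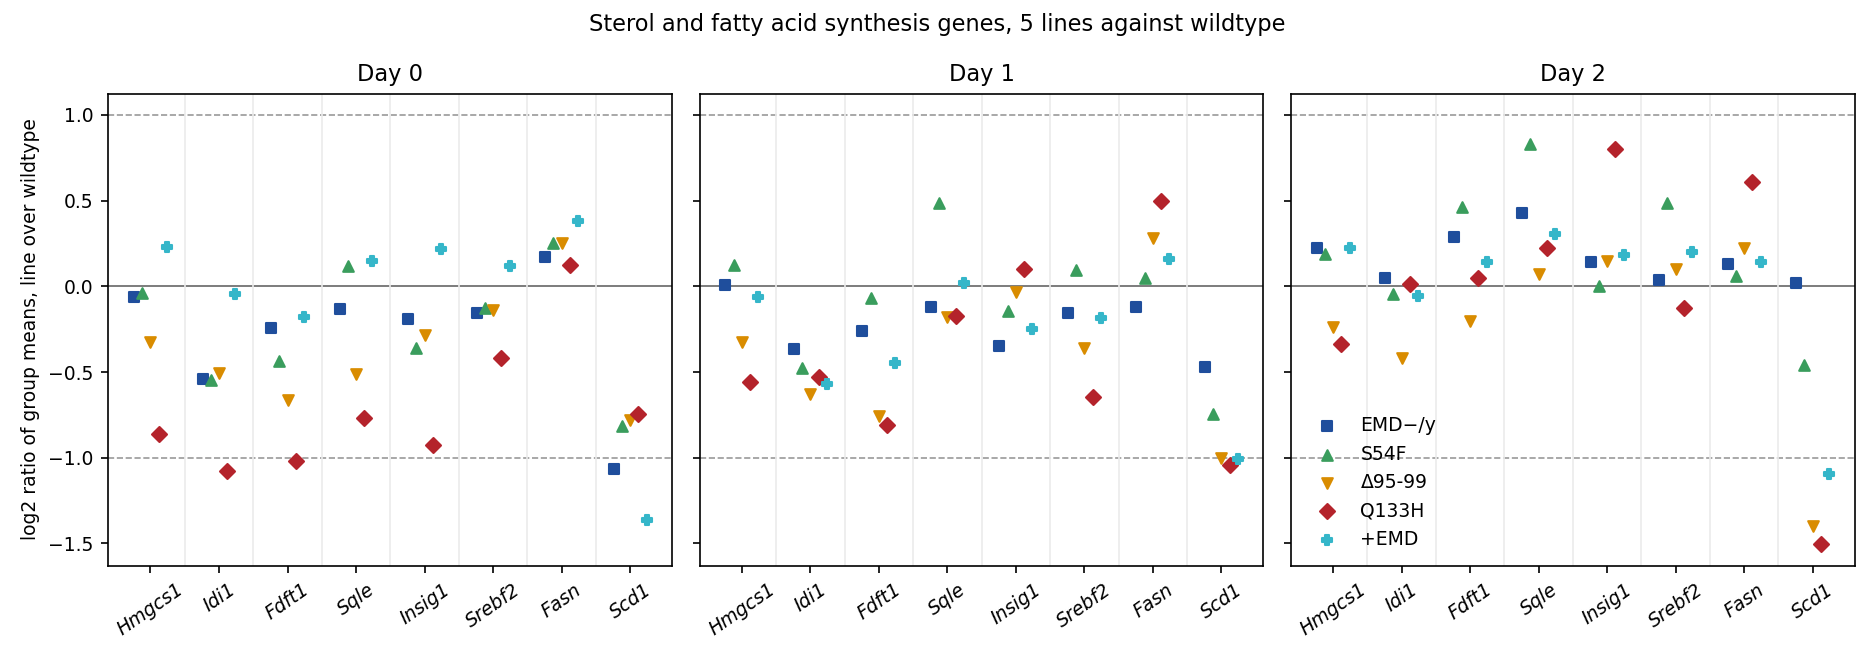
The log2 ratio of each line's mean to the wildtype mean is plotted for the 8 genes on days 0, 1 and 2, with 1 symbol per line and dashed lines at 2-fold. Q133H lies lowest for the 4 sterol enzymes and Insig1 on day 0, and Scd1 lies below wildtype in 14 of 15 comparisons.

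Scd1 was the gene that differed most from wildtype. On day 0 its wildtype mean was between 3269.7 and 3348 over the 5 tables, and its means in EMD-/y, S54F, Δ95-99, Q133H and +EMD were 1580.1, 1857, 1949.7, 1992 and 1271. Every other line was below wildtype, by log2 ratios of -1.07, -0.82, -0.78, -0.75 and -1.36. Of all genes tested, between 3.66% and 11.3% had a lower ratio than Scd1 in these 5 comparisons.

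On day 1 the wildtype mean of Scd1 was 5736 to 6182, and the log2 ratios were -0.47, -0.75, -1.001, -1.04 and -1.01 in the order EMD-/y, S54F, Δ95-99, Q133H and +EMD. The 3 that were past 2-fold lay within 0.05 of the threshold, and none of them remained past it when means were scaled to the sum of all means. Each of the 3 compares groups on opposite sides of the division by predicted genes. In EMD-/y, the only line on the same side as wildtype on day 1, no gene was past 2-fold.

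By day 2 the lines lay further apart for Scd1. The wildtype mean was 6608 to 7507 over the tables, and those of the others were 6687, 4913, 2777, 2646 and 3225 in the same order. EMD-/y was level with wildtype at a log2 ratio of 0.02, S54F was at -0.46, and Δ95-99, Q133H and +EMD were at -1.40, -1.50 and -1.10. The add-back line +EMD was therefore near the mutants Δ95-99 and Q133H, and EMD-/y, the parent of these lines, was near wildtype. All groups of day 2 were on the same side of the division by predicted genes.

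Fasn, the other fatty acid gene, showed no such pattern: its ratio was above 1 in 14 of 15 comparisons with wildtype, at log2 ratios between -0.12 and 0.61. The largest values were in Q133H on days 1 and 2, where its means of 11420.0 and 7330.1 compare with 8080.1 and 4805 in wildtype.

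On day 0, Hmgcs1, Idi1, Fdft1, Sqle and Insig1 were lower in Q133H than in the other lines. Their means in Q133H and wildtype were 1053 and 1912 for Hmgcs1, 702 and 1481 for Idi1, and 629 and 1275 for Fdft1. For Sqle they were 864 and 1470.1, and for Insig1 469.6 and 891. The log2 ratios were -0.86, -1.08, -1.02, -0.77 and -0.92, with Idi1 and Fdft1 past 2-fold. For each of these 5 genes, and for Srebf2 at -0.42, Q133H had the lowest ratio of the 5 lines, while Fasn was at 0.12. The Q133H and wildtype groups of day 0 lay on opposite sides of the division by predicted genes, as did those of S54F and Δ95-99, and the part of this in the difference was not tested. On the same side as Q133H, log2 ratios to wildtype on day 0 for Hmgcs1, Idi1, Fdft1, Sqle and Insig1 were -0.04, -0.54, -0.44, 0.12 and -0.36 in S54F and -0.32, -0.51, -0.67, -0.51 and -0.28 in Δ95-99. Of the 18 other sterol synthesis enzymes described below, 17 were tested on day 0, and in Q133H 5 of them were above wildtype and 4 were at least 2-fold lower. Their median log2 ratio was -0.51 in Q133H, -0.43 in S54F and -0.23 in Δ95-99.

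The distance of Q133H from wildtype was smaller by day 2, or had turned. Its log2 ratios to wildtype were then -0.33 for Hmgcs1, 0.01 for Idi1, 0.05 for Fdft1, 0.22 for Sqle and 0.80 for Insig1. S54F had the highest Sqle of the 6 lines on days 1 and 2, with a log2 ratio to wildtype of 0.48 and then 0.83. Idi1 was below wildtype in all 5 lines on days 0 and 1, at log2 ratios of -0.54, -0.54, -0.51, -1.08 and -0.04 and then -0.36, -0.48, -0.63, -0.53 and -0.57 in EMD-/y, S54F, Δ95-99, Q133H and +EMD, and by day 2 only Δ95-99 differed by more than 0.1, at -0.42.

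Across the 18 groups, 6 of the 8 genes moved closely together. Pearson's r between a gene's log2 level and the mean of the other 7 was 0.98 for Fdft1, Idi1 and Hmgcs1, 0.91 for Sqle and Insig1, and 0.81 for Srebf2, against 0.65 for Scd1 and 0.26 for Fasn. These are descriptions over groups that share the 3 days, the lines and the wildtype tables. Of 8648 genes, the 5 outside the set with levels most like its mean were Cyp51 (r = 0.98), Mvk (0.96), Nsdhl (0.96), Hsd17b7 (0.96) and Fdps (0.96), over the same 18 groups. All 5 encode enzymes of cholesterol synthesis and are in the list of other sterol enzymes below.

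The other enzymes of the pathway went the same way on day 1. Of 18 further sterol synthesis enzymes, 12 were at least 2-fold higher on day 1 than on day 0 in wildtype, as were 12 in each of EMD-/y, S54F and Δ95-99, 14 in Q133H and 10 in +EMD, and none was 2-fold lower. Of all genes, 5.95% to 12.7% were 2-fold higher and 6.60% to 10.6% lower in a line. The median log2 ratio of the 18 enzymes lay between 1.16 in +EMD and 1.68 in Q133H. In the order wildtype, EMD-/y, S54F, Δ95-99, Q133H and +EMD, Tm7sf2, a sterol reductase, had very low means on day 0, of 1.69, 1.09, 1.42, 1.42, 1.53 and 1.86, and had means of 257, 154, 149, 57.3, 78.0 and 114 on day 1 in the same order. Its wildtype mean on day 0 was 1.69 in this table and 0.368 to 0.651 in the tables against other lines, so means this low depend on the table and no fold is given. Lbr, an inner nuclear membrane protein with sterol reductase activity, and Ggps1, which makes geranylgeranyl diphosphate for protein prenylation, did not pass 2-fold in any line on day 1. From day 1 to day 2, 3 of 108 ratios of the 18 enzymes were 2-fold higher and 9 lower. Of all genes, 6.55% to 11.2% were 2-fold higher and 4.54% to 12.2% lower in a line. Lbr was among those past 2-fold lower on day 2 than on day 1 in all 6 lines, at log2 ratios of -1.09, -1.10, -1.53, -1.04, -1.21 and -1.35.

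**Figure D4:**
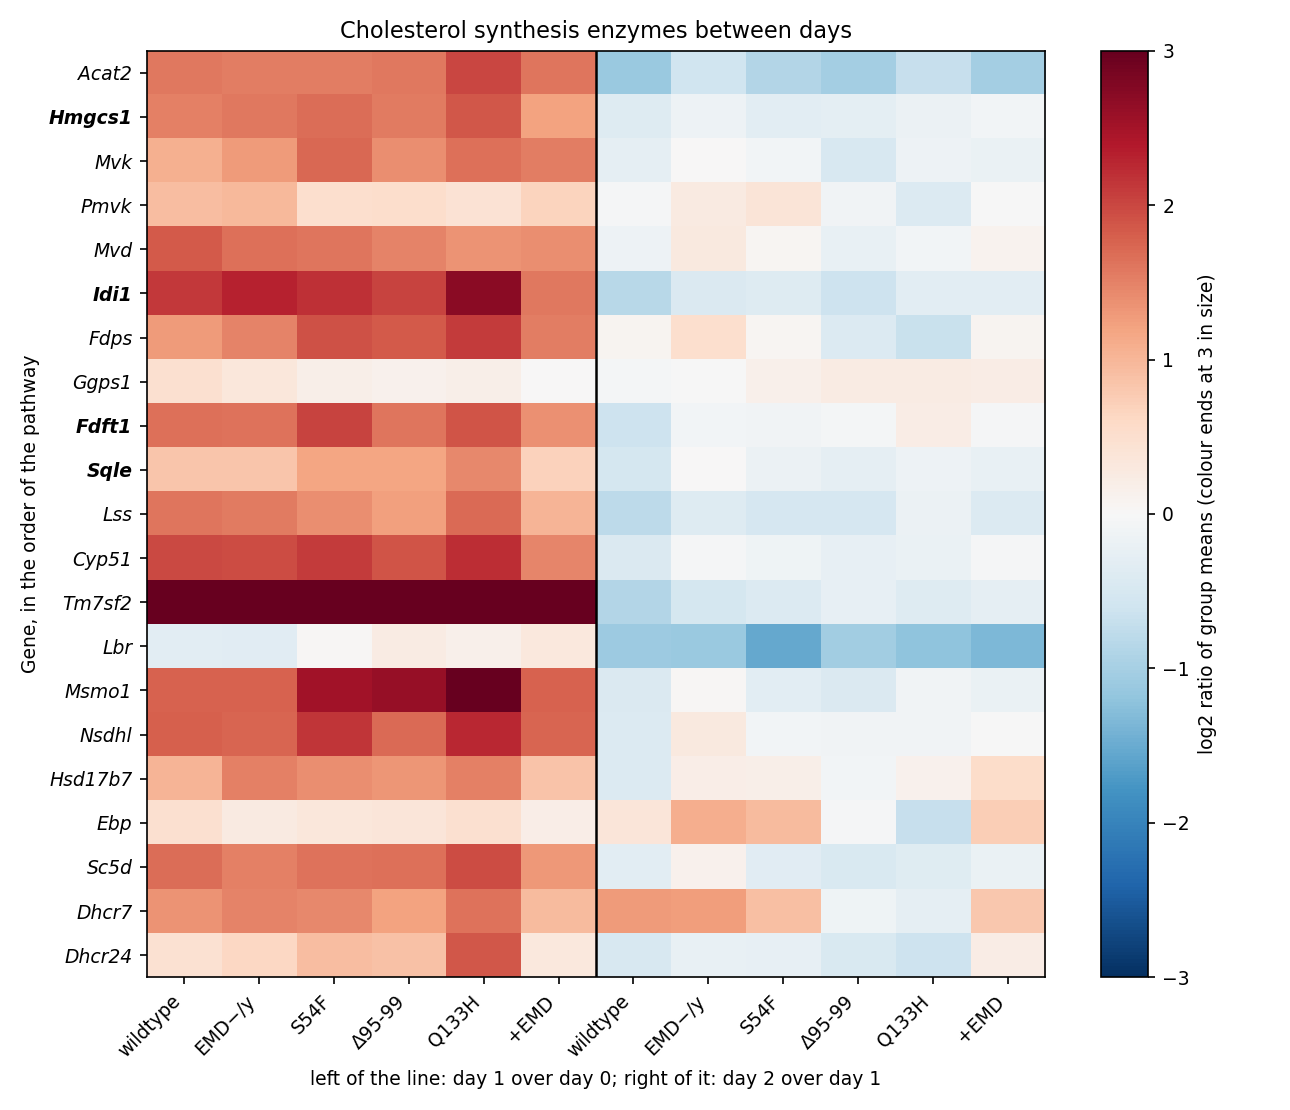
Each cell is the log2 ratio of group means of 1 cholesterol synthesis enzyme, ordered roughly along the pathway, in 1 line, for day 1 over day 0 left of the vertical line and day 2 over day 1 right of it. Names in bold are Hmgcs1, Idi1, Fdft1 and Sqle, and red marks higher values, which fill most of the left side; the color ends at 3 in size, which Tm7sf2 exceeds.

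Against wildtype, the most of these enzymes that were 2-fold lower in a comparison was 4, in Q133H on day 0 (of 17 tested) and on day 2 (of 18), where 8.67% and 15.6% of all genes were. Lbr in +EMD on day 1 was the only case that was 2-fold higher, where 9.20% of all genes were. Over the 15 comparisons the 3 with the highest median log2 ratio were Lbr at 0.47, the methylsterol oxidase Msmo1 at 0.36 and Ggps1 at 0.17. The 3 with the lowest were the sterol isomerase Ebp at -0.65, the sterol dehydrogenase Nsdhl at -0.85 and Tm7sf2 at -1.01, the last over the 10 comparisons in which it was tested. Nsdhl was below wildtype in all 15 comparisons, from -0.19 in S54F on day 2 to -1.75 in Q133H on day 0. Dhcr7, the last enzyme of the pathway and named after its values were seen, differed from the 4 sterol enzymes among the 8 genes from day 1 to day 2: its means were 1459, 1317, 1070.5, 1011, 761 and 1166 on day 1 and 3561, 3128, 1994, 929, 635 and 2056 on day 2 in wildtype, EMD-/y, S54F, Δ95-99, Q133H and +EMD. It was at least 2-fold higher on day 2 in wildtype and EMD-/y and within 2-fold in the other 4 lines, and its log2 ratios to wildtype on day 2 in Δ95-99 and Q133H were -2.15 and -2.73.

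Besides Insig1 and Srebf2, 5 further genes of SREBP and its control (Srebf1, Scap, Insig2, Mbtps1 and Mbtps2) were examined. None of the 5 was past 2-fold between days in any line, where 5.95% to 12.7% of all genes were higher and 4.54% to 12.2% lower. The median log2 ratio of the 5 from day 0 to day 1 lay between -0.19 and 0.14. Against wildtype 1 was higher and 1 lower, both in Q133H on day 2, where 18.2% and 15.6% of all genes were. The medians over the 15 comparisons were 0.21 for the protease Mbtps2, 0.18 for the protease Mbtps1 and 0.01 for the escort protein Scap. They were -0.14 for Srebf1, which encodes SREBP-1, and -0.22 for Insig2.

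Among 13 other genes of fatty acid synthesis, 2 or 3 were 2-fold higher on day 1 than on day 0 in each line and none lower. Of all genes, 5.95% to 12.7% were 2-fold higher and 6.60% to 10.6% lower in a line. The median log2 ratio of the 13 genes lay between 0.30 and 0.58, below that of the sterol enzymes in each line. From day 1 to day 2, over the 6 lines, 3 of 78 ratios were 2-fold higher and 12 lower, where 6.55% to 11.2% and 4.54% to 12.2% of all genes were in a line. Against wildtype, 2 of 65 ratios were 2-fold higher and 0 lower on day 0, 2 higher and 5 lower on day 1, and 6 higher and 7 lower on day 2, beside the shares of all genes given above. Elovl6, which elongates fatty acids, was higher than wildtype in all 15 comparisons, with a median log2 ratio of 1.06 and a highest value of 2.23 in Q133H on day 2. The medians of the acetyl-CoA carboxylase Acaca and the citrate lyase Acly were 0.47 and 0.18, and those of Elovl1, the acetyl-CoA synthetase Acss2 and the carboxylase Acacb were -0.43, -0.74 and -0.81.

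The sterol enzymes were higher on day 1 also in the lines in which most muscle genes were not past 2-fold higher. In Q133H the median log2 ratio from day 0 to day 1 was 1.88 over Hmgcs1, Idi1, Fdft1 and Sqle and -0.72 over the 10 myogenic markers, of which 3 were at least 2-fold lower and 1, Myf5, higher. Of all genes, 6.60% were 2-fold lower and 5.95% higher. Pax7 counts in this median although its means of 3.01 and 5.49 were under 10. Myog, an early regulator of differentiation, had means of 5208 and 3322 in Q133H on days 0 and 1, and of 7645 and 36642 in wildtype. In Δ95-99 the medians were 1.58 for the enzymes and 0.28 for the markers, none of which was past 2-fold. There 7.53% of all genes were 2-fold higher and 6.96% lower. In wildtype, EMD-/y, S54F and +EMD the enzymes' medians were 1.58, 1.60, 1.84 and 1.29, and those of the markers 1.95, 1.197, 1.42 and 1.197, with 5 or 6 markers at least 2-fold higher. Pax7 was 2-fold lower in wildtype, at a log2 ratio of -1.40, and no marker was in EMD-/y, S54F or +EMD. Of all genes, 9.62% to 12.7% were 2-fold higher and 7.17% to 10.6% lower in these lines.

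**Figure D5:**
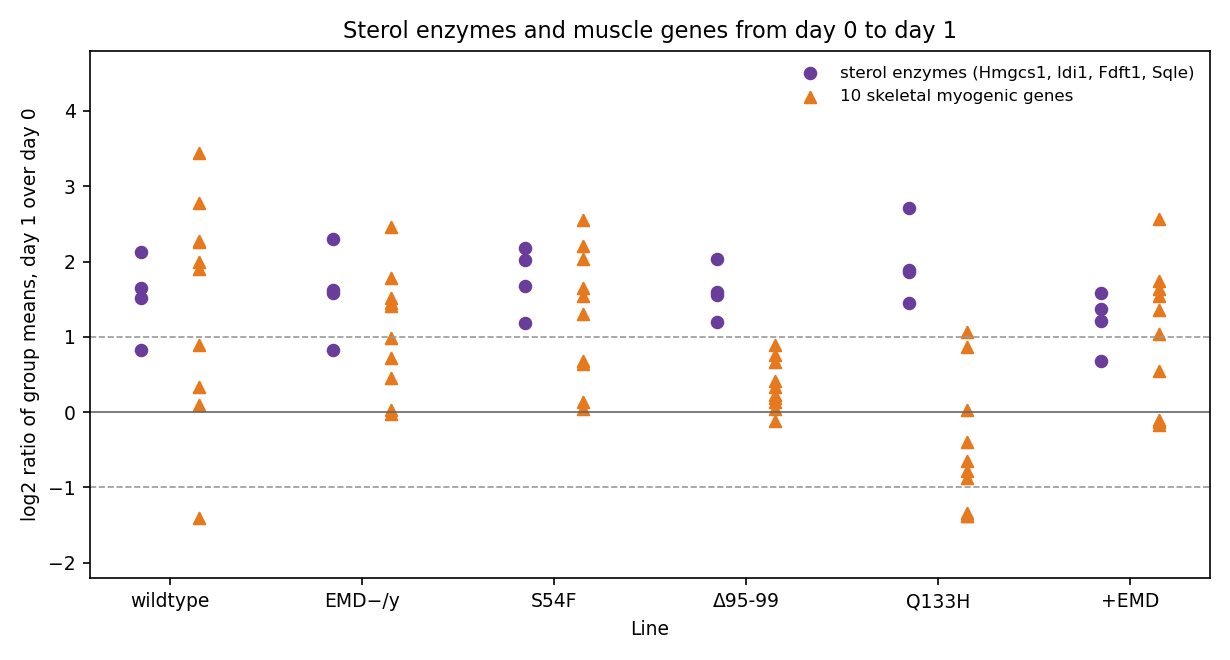
For each line, the log2 ratio of day 1 over day 0 is plotted for the 4 sterol enzymes (circles) and for the 10 skeletal myogenic markers (triangles), with dashed lines at 2-fold. The circles lie between 0.68 and 2.71 in every line, and most triangles of Q133H lie below 0.

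Reads from near-identical sequence may have been split between genes. The longest transcripts of Idi1 and Fdft1 share at least 200 bases at 97% identity or more with pseudogenes (Gm13502 and Gm35570 for Idi1, Gm6781 for Fdft1). Fdft1 also overlaps Ctsb, and Hmgcs1 an antisense transcript, Gm48342; whether reads were counted by strand is not given in the sources used here.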

How the data were processed

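RNA was measured by sequencing of poly-A libraries. The authors filtered reads with SOAPnuke, mapped them with HISAT2 to mm10, and compared groups with DESeq2, with versions not given in the sources used here. The signal values as deposited are the authors' mean normalized counts, 1 per gene and group in each of the 27 tables. Each table also holds the authors' fold changes, p-values and calls, which were not used, and it holds no value per library, so depth per library, errors and tests could not be had. The precision of each mean is therefore unknown.

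Gene numbers were matched to mouse symbols, which succeeded for 17824 of 17855. For each table, log2 of the second mean over the first was computed with no pseudocount, and called at a fold of 2 or more where the higher mean was at least 10. Levels per kilobase used the lengths in the tables. Ratios were computed in Python 3.11.15 with pandas 2.3.3 and numpy 2.4.6 and drawn with matplotlib 3.10.9, and the ratio functions were tested on simulated data. Transcripts were compared with minimap2 2.31. The 8 genes and all lists were chosen with earlier results of these data known. Besides the 8 genes, the genes named were Emd, of each pathway list the 3 with the highest and the 3 with the lowest median log2 ratio to wildtype, and the 5 genes with the most similar levels over the 18 groups among those with a mean of at least 100 in every group. Some genes of the lists are not reported here by name. Markers were read by summed level. Alternatives were folds of 1.5 and 3, no minimum mean, a minimum mean of 100, and pseudocounts of 1 and 10. Others were centring on the median gene, scaling to the sum of means, and ratios joined through 3 other tables. Restriction to groups on the same side of the division by predicted genes was chosen after the data were seen.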

Additional observations from a re-analysis of the deposited data

How the results depend on the processing

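No paired analysis was possible because the tables hold group means with no value per library, and for the same reason no replicate could be left out. Of 120 alternative values of 12 counts, 98 were within 1.5 times the reported count. At a fold of 1.5 the counts became 11 in place of 4 (lower than wildtype, day 0), 8 in place of 3 (lower, day 1), 3 in place of 0 (higher, day 2), 2 and 7 in place of 0 and 0 (higher and lower from day 1 to day 2), and 25 in place of 15 (other fatty acid synthesis genes from day 0 to day 1). At a fold of 3 they became 0 lower than wildtype on days 0, 1 and 2, 15 in place of 28 for the 8 genes from day 0 to day 1, 42 in place of 72 for the other sterol enzymes and 8 in place of 15 for fatty acid synthesis. These moves follow from the threshold itself. Scaling to the sum of means gave 0 lower on day 1, 1 higher on day 2 and 1 lower from day 1 to day 2, and the cause was not tested. Centring and joining through other tables each gave 1 lower on day 1, and comparisons on the same side of the division gave 0 of 8. Fewer ratios were counted there, which also gave 2 of 16 in place of 4 on day 0, and from day 0 to day 1 4 of 8 in place of 28 for the 8 genes, 10 of 18 in place of 72 for the other sterol enzymes and 3 of 13 in place of 15 for fatty acid synthesis. Of 38 ratios past 2-fold, 190 alternative values were computed, of which 0 reversed and 9 were under 2-fold. Of these 9, 8 were for Scd1 on day 1. The other was for Fdft1 in Q133H on day 0, at -0.98 under scaling to the sum of means. The largest shift of a log2 ratio of the 8 genes in any setting was 0.27, so none past 2-fold could have reversed. What depth limits cannot be given.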

Other observations

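Genes that move cholesterol within the cell had medians against wildtype well under 2-fold. Over the 15 comparisons with wildtype the median log2 ratios were 0.17 for Npc2 and 0.01 for Npc1, which export cholesterol from lysosomes, and -0.27 for Stard4, a sterol transport protein. Between days the list of 5 sterol uptake and transport genes that holds them was not flat. From day 0 to day 1, 11 of 30 ratios were 2-fold higher and 0 lower, with medians of 0.60 to 1.25 in a line. Of all genes, 5.95% to 12.7% were 2-fold higher and 6.60% to 10.6% lower. From day 1 to day 2, 0 of 30 were higher and 4 lower, where 6.55% to 11.2% and 4.54% to 12.2% of all genes were.

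Genes of sterol efflux and of the sterol-sensing LXR receptors did not move together. Of 7, of which Nr1h3 was too low to be tested, at most 1 was 2-fold higher and at most 1 lower on day 1 than on day 0 in a line. Of all genes, 5.95% to 12.7% were 2-fold higher and 6.60% to 10.6% lower. Abca1, a cholesterol exporter, had a median log2 ratio to wildtype of 1.14 over the 12 comparisons in which it was tested, and Abcg1, another exporter, of -0.88 over 11. Comparisons without a mean of at least 10 were left out of these 2 medians. The ratios were not all in 1 direction: they ran from -1.01 to 3.55 for Abca1 and from -3.15 to 1.54 for Abcg1. The medians of Soat1, Mylip, Nr1h2 and Apoe were 0.12, 0.09, -0.23 and -0.68. Of 8 genes of fatty acid oxidation, at most 1 was past 2-fold in each direction in any comparison. Of all genes, 4.79% to 18.2% were 2-fold higher and 2.89% to 15.6% lower in a comparison. The medians of the 8 genes against wildtype were all below 0, from -0.12 for Cpt1a, -0.16 for Hadhb and -0.17 for Cpt2 to -0.25 for Acadm, -0.25 for Acadvl and -0.29 for Acadl.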
